A study of Mus musculus with 6 samples.

Results

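The matrix metalloproteinase (Mmp), a disintegrin and metalloproteinase (Adam), Adamts, Adamts-like (Adamtsl) and tissue inhibitor of metalloproteinase (Timp) genes were followed in RNA-seq libraries of purified mouse Sertoli cells. Members were the protein-coding genes whose symbol begins with one of these names and a digit, a rule that used no measured value. They were 70 of the 28262 genes listed, with 19 Mmp, 24 Adam, 18 Adamts, 5 Adamtsl and 4 Timp genes. The control was 3 libraries of *Pa1 F/F* Sertoli cells, which carry floxed *Pa1* alleles, and the knockout was 3 libraries of *Amh-pa1-/-* Sertoli cells, in which Cre expressed from the *Amh* promoter deletes the floxed exons in Sertoli cells. All 6 were untreated, of the C57BL/6 strain and from mice at 20 days of age. The cells had been freed from the tubules with collagenase IV, hyaluronidase and trypsin and kept in culture. The labels name no separate animals or cultures, so the p-values given here measure only the spread between these libraries. *Pa1* itself was not analysed here, so that the reads were not used to check the genotype.

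MMPs are zinc proteinases that are made as inactive proenzymes, are secreted or anchored in the membrane, and cut collagens, laminins, proteoglycans and other proteins outside the cell. ADAMs are membrane proteins, many of which release the outer part of growth factors, receptors and adhesion molecules, and some of which belong to sperm. ADAMTS enzymes are secreted and cut proteoglycans and procollagens, ADAMTS-like proteins share their other domains but lack the proteinase domain, and TIMPs block the active site of these enzymes. In the seminiferous epithelium, proteinases and their inhibitors from Sertoli cells are known for the remodelling of the matrix and of the junctions that germ cells pass.

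Of the 6 Mmp genes that lie in a row on chromosome 9 within 309372 bases, *Mmp12*, *Mmp3* and *Mmp10* were each past both thresholds on the lower side, as described with the values of that cluster. *Mmp3* was tested only through *Pa1 F/F*, where it is high, and *Mmp13*, *Mmp8* and *Mmp27* were not tested. The 100 bases before the RefSeq starts of all 6 neighbours (GRCm38.p6, plus strand) are shown to compare these genes, with the 7-base motif TGACTCA or its reverse complement TGAGTCA in capitals. That motif is bound by AP-1, the family of dimers to which JUN belongs.
*Mmp13* (chr9:7272414-7272513): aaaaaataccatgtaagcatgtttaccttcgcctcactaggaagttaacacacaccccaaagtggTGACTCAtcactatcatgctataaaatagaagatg
*Mmp12* (chr9:7347274-7347373): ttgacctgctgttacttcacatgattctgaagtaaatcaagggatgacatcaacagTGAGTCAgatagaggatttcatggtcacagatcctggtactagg
*Mmp3* (chr9:7445722-7445821): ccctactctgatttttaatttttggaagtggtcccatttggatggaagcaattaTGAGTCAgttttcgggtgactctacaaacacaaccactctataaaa
*Mmp10* (chr9:7502242-7502341): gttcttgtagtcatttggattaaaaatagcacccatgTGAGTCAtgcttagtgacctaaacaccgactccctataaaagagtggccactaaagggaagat
*Mmp8* (chr9:7558329-7558428): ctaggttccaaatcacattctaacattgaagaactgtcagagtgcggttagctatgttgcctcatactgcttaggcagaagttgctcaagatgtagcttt
*Mmp27* (chr9:7571296-7571395): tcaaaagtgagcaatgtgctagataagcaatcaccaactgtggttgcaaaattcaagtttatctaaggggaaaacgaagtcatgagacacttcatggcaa
*Mmp12* has another listed start, near the start of the gene as counted, whose preceding 100 bases (chr9:7344297-7344396) held no motif. The 100 bases before *Mmp8* and *Mmp27* held none either. The motif began 35 bases before the start of *Mmp13*, 46 before that of *Mmp3* and 63 before that of *Mmp10*. In *Mmp12* it began 44 bases before the printed start, which lies within the gene as counted. Within the whole window of 250 bases before to 50 after the start, on both strands, it was in the promoters of 6 of 43 member genes with an entry (14%), and 27 members had no entry. Of all 27025 genes with an entry in the promoter table, 1607 (5.95%) had it in at least 1 promoter. Counted by single promoters, it was in 6 of 47 of the member genes (12.8%) and in 1709 of all 32851 (5.2%). The other member genes were *Adam19*, 131 bases before the start, and *Adam1b*, 20 bases after it. The match is a description of letters only.

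The libraries held 13203757 to 16231443 counts, and their TMM factors lay between 0.990 and 1.03. *Pa1 F/F* replicate 2 and *Amh-pa1-/-* replicate 3 stood apart from the other libraries of their genotype. The root mean square log2 difference was 0.267 between *Pa1 F/F* replicates 1 and 3, and 0.470 and 0.475 when either was set against replicate 2. It was 0.285 between *Amh-pa1-/-* replicates 1 and 2, and 0.563 and 0.567 when either was set against replicate 3. Both close pairs differed by more than counting noise, with chi-square values of 2.23 and 1.67 per degree of freedom. They were kept as separate replicates. The same measure was 20.0 and 18.4 against *Pa1 F/F* replicate 2, and 30.1 and 28.0 against *Amh-pa1-/-* replicate 3. Such values cannot tell separate cultures from repeated libraries of the same culture, since reads without molecular identifiers are not independent molecules. Whether the close pairs are independent is therefore not known. Of 22 Sertoli cell markers, 19 were tested, 9 fell and 1 rose, while *Sox9*, *Wt1* and *Dhh* were at 3172 to 6084 normalized counts in every library and did not pass the test, and *Trf*, *Tsx* and *Rhox5* were at most at 15.5. The 9 that fell ran from *Sox8* (log2 fold change -1.85), *Defb19* (-1.42), *Inha* (-1.23) and *Gata4* (-0.88) to *Aard* (-0.27). The marker that rose was *Vim*, with means of 27860 and 35494 normalized counts in *Pa1 F/F* and *Amh-pa1-/-* libraries. The summed Sertoli markers took 20060 to 20392 CPM (counts scaled to the effective, TMM-adjusted library size) in *Pa1 F/F* libraries and 13689 to 16352 in *Amh-pa1-/-* libraries, of which *Clu* made up 52.5% to 65.4%, and without *Clu* they took 6949 to 7192 and 6402 to 6501. The sum without *Clu* includes the rise of *Vim*, so it does not show that the other markers kept their level. Of 12 macrophage markers, 9 were tested and 7 fell (4 of them tested only through *Pa1 F/F*, where they were high), of 8 Leydig cell markers 4 were tested and 3 fell, and of 6 mesothelial cell markers 5 were tested and 3 rose (1 of them tested only through *Amh-pa1-/-*). The summed Leydig markers took 813 to 934 CPM in *Pa1 F/F* and 178 to 315 in *Amh-pa1-/-* libraries, and the summed mesothelial markers 6.78 to 11.6 and 30.1 to 38.6. Without their most abundant genes, *Star* and *Upk3b*, these sums were 316 to 367 and 40.5 to 59.3 CPM for Leydig markers and 6.45 to 10.6 and 14.4 to 19.3 CPM for mesothelial markers. In bulk samples fewer cells of a type and less RNA per cell cannot be told apart.

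Of the 70 members, 42 were tested and 28 had too few counts. Values are given for replicates 1, 2 and 3 in this order as normalized counts, which are read counts scaled to the same effective library size, and a log2 fold change is that of *Amh-pa1-/-* over *Pa1 F/F*. A gene is said to have risen or fallen at an adjusted p under 0.05. The Mmp genes were mostly lower or not past the test in *Amh-pa1-/-* Sertoli cells, the most abundant inhibitor *Timp1* was lower, and the abundant membrane proteinases *Adam9* and *Adam10* were higher. By edgeR's quasi-likelihood F statistic, adjusted by Benjamini-Hochberg over 14919 tested genes, 13 members fell (31%) against 17.1% of all tested genes, and 9 rose (21.4%) against 18.2%. With at least a 2-fold change as well (a log2 fold change of 1 or more in size), called past both thresholds here, 11 fell (26.2%) against 6.56% and 6 rose (14.3%) against 5.44%. When edgeR's glmTreat tested against a log2 fold change of 1 itself, 4 members were lower (9.52%) and 0 higher. Of all tested genes, 2.05% and 1.56% were then lower and higher. The normalized counts of both genotypes did not overlap in 26 members (61.9%), against 52.4% of all tested genes. The median log2 fold change was -0.20 over the tested members and 0.00 over all tested genes, and the median absolute value was 0.65 and 0.30. The members *Mmp3* and *Adam11* passed the filter on low counts through 1 genotype only. With at least 10 counts in every library, 36 members were tested, of which 11 fell (30.6%) and 7 rose (19.4%), against 17.5% and 18.3% of the 13301 genes then tested.

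By family, 7 of 13 tested Mmp genes fell and 1 rose (median log2 fold change -1.16), and 2 of 12 tested Adam genes fell and 4 rose (median 0.36). Of 11 tested Adamts genes 2 fell and 2 rose (median -0.25), of 3 tested Adamtsl genes 2 rose (median 0.73), and of 3 tested Timp genes 2 fell (median -0.45). Over all tested genes 17.1% fell and 18.2% rose, the shares to set beside these counts and those of smaller groups and lists below.

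**Figure D1:**
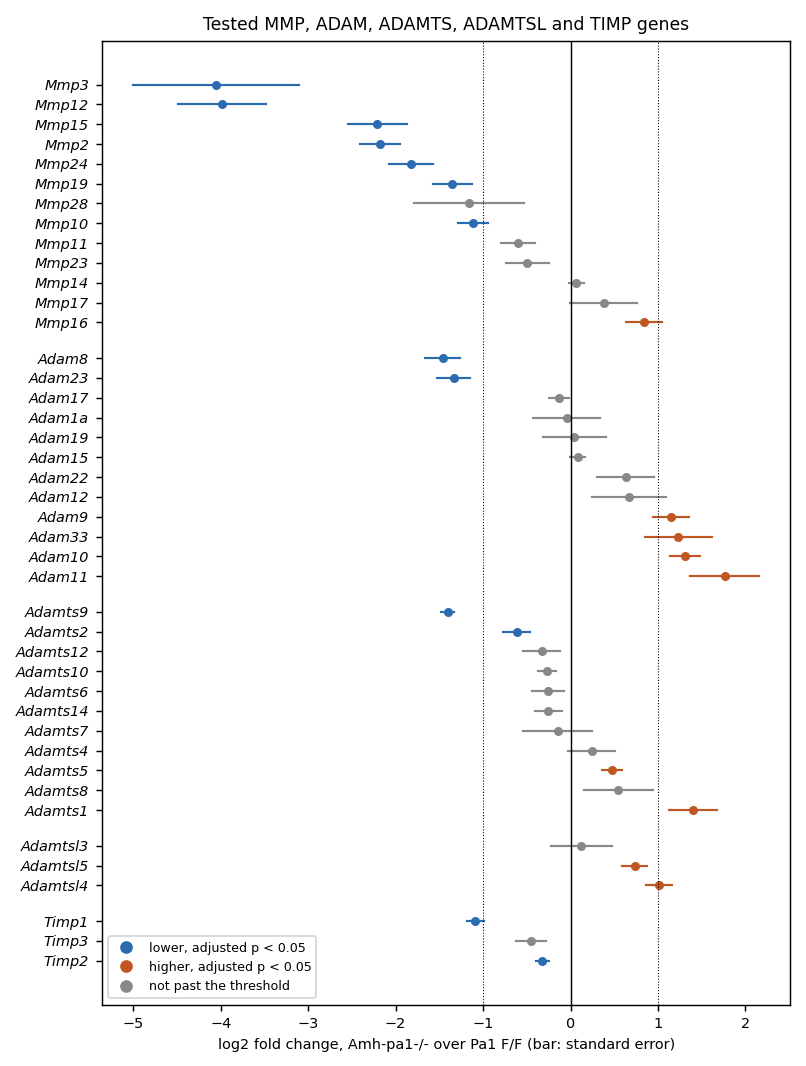
Log2 fold change of *Amh-pa1-/-* over *Pa1 F/F* Sertoli cells for the 42 tested members, grouped by family, with bars for the standard error and dotted lines at -1 and 1. Colours mark the side of the adjusted p threshold. The 7 lower Mmp genes run from *Mmp3* at -4.05 to *Mmp10* at -1.12, and *Adam11* at 1.76 is the highest member. *Mmp3* and *Adam11* were tested only through the genotype where they are high, so their places at the ends are a description.

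The gelatinase *Mmp2*, which cuts denatured collagen and type IV collagen of basement membranes, was among the most abundant members. *Mmp2* (ENSMUSG00000031740, chromosome 8, from 92827291 to 92853420) had normalized counts of 3637, 4701 and 3499 in *Pa1 F/F* libraries and 1046, 969 and 593 in *Amh-pa1-/-* libraries. All *Amh-pa1-/-* libraries lay below all *Pa1 F/F* libraries, with *Amh-pa1-/-* replicate 3 the lowest. The means were 3946 ± 658 (SD, n = 3) and 869 ± 242 (SD, n = 3), a log2 fold change of -2.18 ± 0.23 (SE, adjusted p = 0.000845). On the pro-MMP2 activation route, MMP14 at the cell surface binds TIMP2 and activates MMP2. *Mmp14* (ENSMUSG00000000957, chromosome 14, from 54431612 to 54445364) had normalized counts of 9628, 9985 and 9362 in *Pa1 F/F* libraries and 9705, 9385 and 11238 in *Amh-pa1-/-* libraries. The genotypes overlapped, and the log2 fold change was 0.07 ± 0.08 (SE, adjusted p = 0.580), with a value of -0.01 without *Amh-pa1-/-* replicate 3. Per length, the ratio of *Mmp2* to *Mmp14* in RPKM (reads scaled by exon length and library size) was 0.659, 0.822 and 0.652 in the *Pa1 F/F* replicates and 0.188, 0.180 and 0.0921 in *Amh-pa1-/-* libraries. The ratio of *Mmp2* to *Timp2* in RPKM was 0.533, 0.595 and 0.495 against 0.181, 0.171 and 0.0990. Neither ratio overlapped between the genotypes. *Mmp9*, the other gelatinase, was not tested and had 2, 35 and 1 counts in *Pa1 F/F* libraries and 3, 2 and 3 in *Amh-pa1-/-* libraries, so that its counts came mostly from *Pa1 F/F* replicate 2.

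The chromosome 9 cluster, whose promoters are shown above, holds *Mmp13*, *Mmp12*, *Mmp3*, *Mmp10*, *Mmp8* and *Mmp27* in this order, all on the plus strand. *Mmp12* (ENSMUSG00000049723, chromosome 9, from 7344381 to 7369499), the macrophage elastase, had normalized counts of 341, 396 and 368 in *Pa1 F/F* libraries and 32.2, 33.8 and 4.01 in *Amh-pa1-/-* libraries. The genotypes were far apart, and *Amh-pa1-/-* replicate 3 was the lowest. The means were 368 ± 27.6 (SD, n = 3) and 23.3 ± 16.8 (SD, n = 3), a log2 fold change of -3.98 ± 0.51 (SE, adjusted p = 0.00179). *Mmp12* was past the threshold in each fit without 1 replicate, where the value ran from -4.31 to -3.47. Most macrophage markers were lower too. The sum over all 12 genes of the list was 126 to 139 CPM in *Pa1 F/F* libraries and 76.0 to 93.1 in *Amh-pa1-/-* libraries, and none of the 12 was at 0 in all libraries. The macrophage marker *Lyz2* had 550.0, 363 and 454 normalized counts against 24.4, 32.7 and 85.2, and *Csf1r*, the receptor of a macrophage growth factor, had 42.6, 84.2 and 59.8 against 10.7, 9.01 and 13.0. The most abundant of the 12, *Mrc1*, did not pass the test (984 and 1109 normalized counts on average, log2 fold change 0.17, adjusted p = 0.254) and made up 48.3% to 55.2% of the sum in *Pa1 F/F* and 83.4% to 88.8% in *Amh-pa1-/-* libraries. Without *Mrc1* the sum was 71.7, 56.4 and 63.5 CPM in *Pa1 F/F* and 10.4, 10.4 and 12.6 in *Amh-pa1-/-* libraries, so that replicate 3, the lowest for *Mmp12*, was not the lowest for it. Of the single markers *Cd68*, *Mrc1*, *Ptprc*, *Tyrobp* and *Adgre1* were lowest there among the *Amh-pa1-/-* libraries, while *Lyz2*, *Csf1r*, *C1qb*, *C1qc* and *Cx3cr1* were highest there. *Adgre1*, *Ptprc*, *Tyrobp* and *C1qc* passed the filter on low counts only through *Pa1 F/F*, where they were high. The part of these cells in the *Mmp12* result was not tested.

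The stromelysins *Mmp3* and *Mmp10* cut many matrix proteins and other proMMPs. *Mmp10* (ENSMUSG00000047562, chromosome 9, from 7502352 to 7510240) had normalized counts of 206, 229 and 242 in *Pa1 F/F* libraries and 122, 79.99 and 109 in *Amh-pa1-/-* libraries. No library of one genotype reached the other, and the log2 fold change was -1.12 ± 0.17 (SE, adjusted p = 0.00360). *Mmp3* (ENSMUSG00000043613, chromosome 9, from 7445822 to 7455975) had 18, 61 and 15 read counts in *Pa1 F/F* libraries and 4, 1 and 0 in *Amh-pa1-/-* libraries. The log2 fold change was -4.05 ± 0.95 (SE, adjusted p = 0.0167), a value that rests on few counts, with *Pa1 F/F* replicate 2 above the other libraries. *Mmp3* was tested only through *Pa1 F/F*, where it is high, so that the value is given as a description, and without *Amh-pa1-/-* replicate 2 it did not pass (adjusted p 0.000278 to 0.0808 over 13 alternatives). The collagenase *Mmp13* was not tested, with 9, 137 and 7 counts in *Pa1 F/F* libraries and 10, 3 and 7 in *Amh-pa1-/-* libraries. Apart from *Pa1 F/F* replicate 2, the counts of *Mmp13* overlapped between genotypes. *Mmp8* had at most 2 counts and *Mmp27* at most 7 in any library. The inflammatory cytokine gene *Tnf* had a like pattern to *Mmp13* and *Mmp9*, with 0, 68 and 1 counts in *Pa1 F/F* libraries and 0 in each *Amh-pa1-/-* replicate, and was named after its values were seen.

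**Figure D2:**
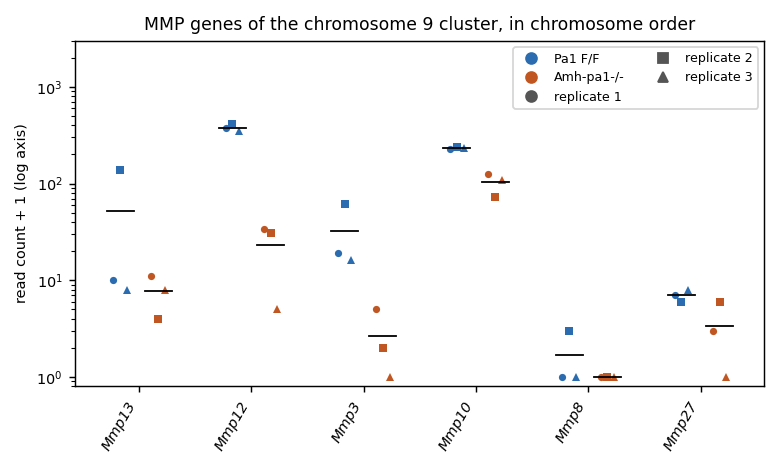
Read counts plus 1 (log axis) of the 6 Mmp genes of the chromosome 9 cluster in each library, in chromosome order, with a line at the mean of each genotype. *Mmp12* has 4 to 33 counts in *Amh-pa1-/-* libraries against more than 10 times as many in each *Pa1 F/F* library, and the 137 counts of *Mmp13* and the 61 of *Mmp3* are in *Pa1 F/F* replicate 2.

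*Mmp11*, or stromelysin-3, which is activated inside the cell by furin, was the most abundant Mmp gene per length in *Pa1 F/F* cells. *Mmp11* (ENSMUSG00000000901, chromosome 10, from 75923222 to 75936496) had normalized counts of 7730.4, 7254 and 7669 in *Pa1 F/F* libraries and 5649.8, 5887 and 3391 in *Amh-pa1-/-* libraries. The genotypes did not overlap and *Amh-pa1-/-* replicate 3 was the lowest, but the log2 fold change of -0.60 ± 0.20 (SE, adjusted p = 0.0526) was not past the threshold. *Mmp11* was past it in 5 of 14 alternatives, with adjusted p from 0.000828 to 0.167. These were the fits with library size only, without a filter, with DESeq2's Wald test and with limma-voom, at -0.64 to -0.58, and the fit without *Amh-pa1-/-* replicate 3, at -0.39. *Mmp11* overlaps *Chchd10* on the other strand, and the strand setting of the counting is not stated. *Mmp19* (ENSMUSG00000025355, chromosome 10, from 128790910 to 128800824), which cuts components of basement membranes, had normalized counts of 125, 97.8 and 88.1 in *Pa1 F/F* libraries and 34.2, 37.2 and 50.1 in *Amh-pa1-/-* libraries. The genotypes did not overlap, with a log2 fold change of -1.35 ± 0.22 (SE, adjusted p = 0.00452), and the call was lost with the closest pair of each genotype summed (0.0602, the highest over 14 alternatives). *Mmp28* had 17, 14 and 12 counts in *Pa1 F/F* libraries and 4, 1 and 13 in *Amh-pa1-/-* libraries, and the overlap came from *Amh-pa1-/-* replicate 3.

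Of the membrane-type MMPs, 6 of 7 were tested, 2 fell and 1 rose (median log2 fold change -0.22). *Mmp15* (ENSMUSG00000031790, chromosome 8, from 95352268 to 95375080) had normalized counts of 87.9, 61.00 and 88.1 in *Pa1 F/F* libraries and 16.6, 24.8 and 10.02 in *Amh-pa1-/-* libraries. The log2 fold change was -2.21 ± 0.34 (SE, adjusted p = 0.00341), with no overlap between genotypes, and the call was lost with the closest pair of each genotype summed (0.0512, the highest over 14 alternatives). *Mmp24* (ENSMUSG00000027612, chromosome 2, from 155775342 to 155818366) had normalized counts of 66.1, 55.2 and 79.7 in *Pa1 F/F* libraries and 23.4, 18.02 and 15.03 in *Amh-pa1-/-* libraries. Its log2 fold change was -1.82 ± 0.25 (SE, adjusted p = 0.00239). *Mmp24* overlaps the opposite-strand gene *BC029722*, which had a mean of 442 normalized counts in *Pa1 F/F* and 649 in *Amh-pa1-/-* libraries, the other direction. *Mmp16* (ENSMUSG00000028226, chromosome 4, from 17852893 to 18119145) had normalized counts of 57.1, 35.8 and 56.6 in *Pa1 F/F* libraries and 88.8, 87.9 and 91.2 in *Amh-pa1-/-* libraries. *Mmp16* rose, with a log2 fold change of 0.84 ± 0.21 (SE, adjusted p = 0.0218), and passed the test in 11 of 14 alternatives (adjusted p 0.00964 to 0.117), but not without *Amh-pa1-/-* replicate 1 or 2. The GPI-anchored *Mmp17* (log2 fold change 0.38, adjusted p = 0.479) and the type II membrane protein *Mmp23* did not pass the test. Per length *Mmp14* made up most of the membrane group, whose RPKM sum was 123, 128 and 119 in the *Pa1 F/F* replicates and 116, 113 and 139.8 in *Amh-pa1-/-* libraries, and so overlapped. The RPKM sum over all Mmp genes was 357, 379 and 349.8 against 251, 249.5 and 222, without overlap. That sum is led by a few genes. Mean RPKM went from 75.9 to 16.7 for *Mmp2* and from 146 to 96.1 for *Mmp11*, which did not pass the test. For *Mmp14* it was 107 and 111.

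**Figure D3:**
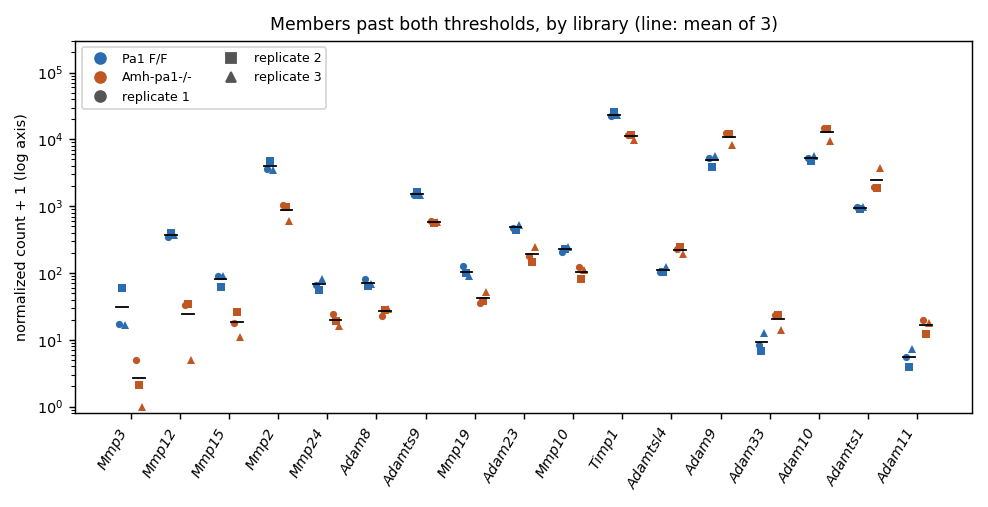
Normalized counts plus 1 (log axis) of the 17 members past both thresholds in each library, ordered by log2 fold change, with a line at the mean of each genotype. From *Mmp3* to *Timp1* the *Amh-pa1-/-* libraries sit lower, and from *Adamtsl4* to *Adam11* they sit higher. *Amh-pa1-/-* replicate 3 stands below the other *Amh-pa1-/-* libraries in *Mmp3*, *Mmp12*, *Mmp15*, *Mmp2*, *Mmp24*, *Timp1*, *Adamtsl4*, *Adam9*, *Adam33* and *Adam10*. It stands above them in *Adam8*, *Mmp19*, *Adam23* and *Adamts1*, only slightly so in *Adam8*.

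The TIMP genes were 3 of the 8 most abundant members per length. *Timp1* (ENSMUSG00000001131, chromosome X, from 20870166 to 20874735), which inhibits most secreted MMPs and ADAM10, led with a mean of 819 RPKM in *Pa1 F/F* and 385 in *Amh-pa1-/-* cells. *Timp1* had normalized counts of 22232, 25572 and 22904 in *Pa1 F/F* libraries and 11746, 11503 and 9959.6 in *Amh-pa1-/-* libraries. The genotypes were well separated, with means of 23569 ± 1766 (SD, n = 3) and 11069.5 ± 969 (SD, n = 3) and a log2 fold change of -1.09 ± 0.10 (SE, adjusted p = 0.000531). *Timp1* was past the threshold in all 14 alternatives with a test of no change, where its log2 fold change ran from -1.14 to -1.02. *Timp2* (ENSMUSG00000017466, chromosome 11, from 118301069 to 118355740) had normalized counts of 8627, 9975 and 8924 in *Pa1 F/F* libraries and 7311, 7151 and 7567 in *Amh-pa1-/-* libraries. The fall was smaller, with a log2 fold change of -0.32 ± 0.07 (SE, adjusted p = 0.0155), and passed the test in 10 of 14 alternatives (adjusted p 0.000792 to 0.144), but not without *Amh-pa1-/-* replicate 1 or 2. *Timp3* (ENSMUSG00000020044, chromosome 10, from 86300372 to 86349506), the matrix-bound inhibitor that also acts on ADAM17 and aggrecanases, had normalized counts of 8559, 6902 and 8765 in *Pa1 F/F* libraries and 6511, 6756 and 4471 in *Amh-pa1-/-* libraries. The genotypes did not overlap, though *Pa1 F/F* replicate 2 was only slightly above *Amh-pa1-/-* replicate 2. The log2 fold change of -0.45 ± 0.17 (SE, adjusted p = 0.0839) was not past the threshold. *Timp4* was not tested, with 10, 9 and 8 counts in *Pa1 F/F* libraries and 5, 11 and 1 in *Amh-pa1-/-* libraries.

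*Timp1* took 79.2%, 80.9% and 79.2% of the RPKM sum of the 4 TIMP genes in the *Pa1 F/F* replicates and 71.1%, 70.7% and 69.4% in *Amh-pa1-/-* libraries. That sum was 976, 1098 and 1005 RPKM against 574, 565 and 499. The shares and the sums did not overlap between the genotypes. *Timp1* overlaps *Syn1*, *Timp3* overlaps *Syn3* and *Timp4* overlaps *Syn2*, all on the other strand. *Syn1* had means of 36.8 and 17.8 normalized counts and *Syn3* of 8.49 and 26.9 in *Pa1 F/F* and *Amh-pa1-/-* libraries, far under the counts of *Timp1* and *Timp3*.

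**Figure D4:**
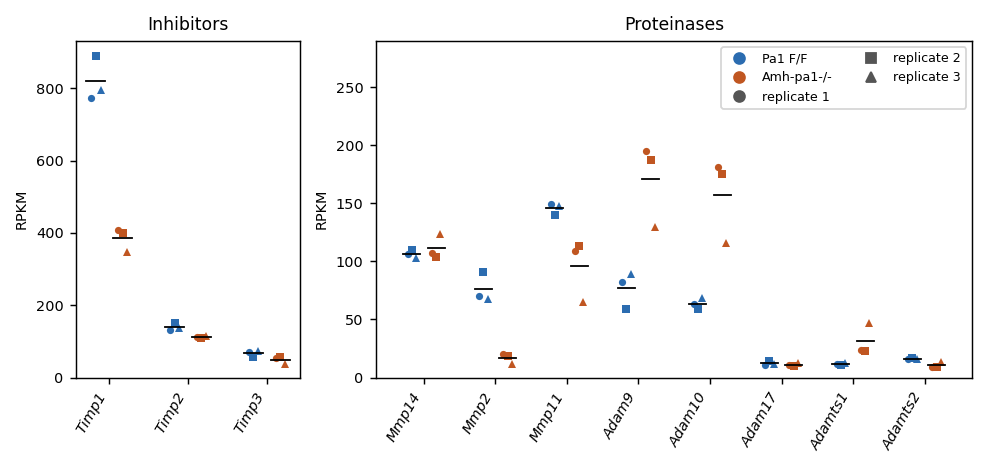
RPKM of the 3 tested TIMP genes and of 8 proteinase genes in each library, with a line at the mean of each genotype and linear axes that start at 0. *Timp1* is at 819 on average in *Pa1 F/F* and at 385 in *Amh-pa1-/-* libraries. *Mmp14* is at 107 and 111 on average while *Mmp2* lies lower and *Adam9* and *Adam10* higher in *Amh-pa1-/-* libraries.

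Of the ADAMs expressed in many tissues, 8 of 9 were tested, 3 rose and 1 fell. *Adam10* (ENSMUSG00000054693, chromosome 9, from 70678997 to 70780229), which cuts NOTCH receptors and cadherins, had normalized counts of 5177, 4819 and 5619 in *Pa1 F/F* libraries and 14827, 14328 and 9479 in *Amh-pa1-/-* libraries. The means were 5205 ± 401 (SD, n = 3) and 12878 ± 2954 (SD, n = 3), a log2 fold change of 1.31 ± 0.17 (SE, adjusted p = 0.00208). All *Amh-pa1-/-* libraries were higher, with replicate 3 nearest to the controls, and *Adam10* was past the threshold in all 14 alternatives. *Adam9* (ENSMUSG00000031555, chromosome 8, from 24949611 to 25016927), another membrane-bound proteinase, had normalized counts of 5258, 3795 and 5712 in *Pa1 F/F* libraries and 12456, 11991 and 8275 in *Amh-pa1-/-* libraries. The pattern over libraries was like that of *Adam10*, with a log2 fold change of 1.15 ± 0.20 (SE, adjusted p = 0.00597). *Adam9* lost the call with the closest pair of each genotype summed (adjusted p = 0.0703), and its adjusted p ran from 2.80e-07 to 0.0703 over 14 alternatives. *Adam17* (ENSMUSG00000052593, chromosome 12, from 21323509 to 21373632), which releases TNF and ligands of the EGF receptor, had normalized counts of 1379, 1752 and 1465 in *Pa1 F/F* libraries and 1325, 1284 and 1590.1 in *Amh-pa1-/-* libraries. The genotypes overlapped, with a log2 fold change of -0.13 ± 0.12 (SE, adjusted p = 0.426), and *Adam17* shares its position with the opposite-strand gene *Iah1*.

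Per length, *Adam10* stood at 5.77, 4.22 and 5.89 times *Adam17* in the *Pa1 F/F* replicates and at 17.2, 17.1 and 9.16 times in *Amh-pa1-/-* libraries. *Adam9* and *Adam10* together made up 86.3%, 82.1% and 86.9% of the RPKM sum of all Adam genes in *Pa1 F/F*, and 94.9%, 94.8% and 89.5% in *Amh-pa1-/-* libraries. That sum was 169, 144 and 182 RPKM against 396, 382 and 274, with no overlap in any of these measures. *Adam8* (ENSMUSG00000025473, chromosome 7, from 139978932 to 139992562), best known from leukocytes, fell. It had normalized counts of 79.7, 63.9 and 67.1 in *Pa1 F/F* libraries and 21.5, 27.04 and 28.1 in *Amh-pa1-/-* libraries, a log2 fold change of -1.46 ± 0.20 (SE, adjusted p = 0.00234). The macrophage marker sums given beside *Mmp12* moved on the same side, and their part in the *Adam8* result was not tested. *Adam33* (ENSMUSG00000027318, chromosome 2, from 131050591 to 131063814) had normalized counts of 7.25, 5.81 and 11.5 in *Pa1 F/F* libraries and 22.5, 22.5 and 13.03 in *Amh-pa1-/-* libraries, at low counts. Its log2 fold change of 1.23 ± 0.38 (SE, adjusted p = 0.0437) was past the threshold in 3 of 13 alternatives, with adjusted p from 0.0173 to 0.164. *Adam12* (log2 fold change 0.67, adjusted p = 0.263), *Adam15* (log2 fold change 0.08, adjusted p = 0.502) and *Adam19* did not pass the test.

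*Adam11*, *Adam22* and *Adam23* lack a working catalytic site and are known as brain proteins that bind LGI ligands. *Adam23* (ENSMUSG00000025964, chromosome 1, from 63445891 to 63596276) had normalized counts of 475, 446 and 519 in *Pa1 F/F* libraries and 179.6, 145 and 244 in *Amh-pa1-/-* libraries. Its log2 fold change was -1.34 ± 0.19 (SE, adjusted p = 0.00257), with no overlap between the genotypes. *Adam11* (ENSMUSG00000020926, chromosome 11, from 102761439 to 102780262) had normalized counts of 4.53, 2.90 and 6.29 in *Pa1 F/F* libraries and 18.5, 11.3 and 17.03 in *Amh-pa1-/-* libraries. It was tested only through *Amh-pa1-/-*, where it is high, so that its log2 fold change of 1.76 ± 0.39 (SE, adjusted p = 0.0141) is given as a description, and without *Pa1 F/F* replicate 1 or *Amh-pa1-/-* replicate 1 it did not pass (adjusted p 0.0144 to 0.0722 over 13 alternatives). *Adam22* was at 7.25 to 20.04 normalized counts and did not pass the test.

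Of the 12 ADAMs of the germ line and epididymis, 11 had too few counts to be tested. *Adam1a*, the tested one, had 14 to 30 counts in all libraries and a log2 fold change of -0.04 ± 0.38 (SE, adjusted p = 0.941). The summed spermatocyte markers took 2.03 to 2.57 CPM in *Pa1 F/F* libraries and 1.46 to 4.09 in *Amh-pa1-/-* libraries, and the spermatid markers, of which *Spaca1* made up 86.1% to 97.5%, took 7.06 to 7.84 and 6.59 to 7.36. Of 8 spermatogonial markers 3 were tested and 2 fell, *Gfra1* (-1.57, adjusted p = 0.00726) and *Kit* (-1.92, adjusted p = 0.0116), *Kit* being tested only through *Pa1 F/F*, where it is high. Their sum, of which *Uchl1* made up 97.3% to 99.3%, was 192 to 220 CPM in *Pa1 F/F* and 190, 199 and 101 in *Amh-pa1-/-* libraries. *Adam32*, which lies 806 bases from *Adam9* on the same strand of chromosome 8, had 2, 5 and 0 counts in *Pa1 F/F* libraries and 12, 7 and 10 in *Amh-pa1-/-* libraries. The counts of *Adam32* did not overlap between the genotypes, and without *Pa1 F/F* replicate 2 it passed the filter on low counts, only through the *Amh-pa1-/-* libraries where it is high, so that its call as higher in that fit (adjusted p = 0.0297, against a highest of 0.162 in the fits without 1 replicate) is given as a description. Its neighbours *Adam3* and *Adam5* had at most 2 and 3 counts in any library.

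Of the ADAMTS enzymes that cut proteoglycans, 5 of 7 were tested, 2 rose and 1 fell. *Adamts9* (ENSMUSG00000030022, chromosome 6, from 92772699 to 92943492), a versican-cutting proteinase, had normalized counts of 1447, 1656 and 1493 in *Pa1 F/F* libraries and 592, 568 and 575 in *Amh-pa1-/-* libraries. The *Amh-pa1-/-* libraries were close to one another and well under the controls, with a log2 fold change of -1.41 ± 0.07 (SE, adjusted p = 8.62e-05), the lowest adjusted p among the members. *Adamts9* was past the threshold in all 14 alternatives, from -1.44 to -1.35. Within its span lie 3 genes on the other strand, *A730049H05Rik* with means of 1655 and 1821 normalized counts in *Pa1 F/F* and *Amh-pa1-/-* libraries, 9530026P05Rik with 45.2 and 13.4, and Gm15737 with 13.7 and 0.325. *Adamts1* (ENSMUSG00000022893, chromosome 16, from 85793827 to 85803113), which also cuts versican and aggrecan, had normalized counts of 966, 900.5 and 984 in *Pa1 F/F* libraries and 1910.3, 1841 and 3755 in *Amh-pa1-/-* libraries. All *Amh-pa1-/-* libraries were higher, and replicate 3 stood at 2.002 times the mean of the other *Amh-pa1-/-* libraries. The log2 fold change was 1.40 ± 0.28 (SE, adjusted p = 0.00894), and without *Amh-pa1-/-* replicate 3 it was 0.98 (adjusted p = 4.22e-05). The call was lost with the closest pair of each genotype summed (0.0615), and the adjusted p ran from 9.99e-07 to 0.0615 over 14 alternatives.

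*Adamts5* (ENSMUSG00000022894, chromosome 16, from 85858170 to 85901125), an aggrecanase that lies 55056 bases from *Adamts1* on chromosome 16, had normalized counts of 433, 411 and 459 in *Pa1 F/F* libraries and 539, 573 and 698 in *Amh-pa1-/-* libraries. It rose less, with a log2 fold change of 0.47 ± 0.11 (SE, adjusted p = 0.0184), and passed the test in 11 of 14 alternatives (adjusted p 0.00469 to 0.0889), but not without *Pa1 F/F* replicate 1 or 2. The aggrecanase *Adamts4* (log2 fold change 0.24, adjusted p = 0.525) and *Adamts8* (log2 fold change 0.55, adjusted p = 0.315) did not pass the test. *Adamts2* (ENSMUSG00000036545, chromosome 11, from 50602084 to 50807573), which trims the N-terminal propeptide of fibrillar procollagens, had normalized counts of 2216, 2373 and 2168 in *Pa1 F/F* libraries and 1236, 1314 and 1854 in *Amh-pa1-/-* libraries. The genotypes did not overlap, and the log2 fold change was -0.62 ± 0.15 (SE, adjusted p = 0.0196), past the threshold in 8 of 14 alternatives. Of the fits without 1 replicate, only the one without *Amh-pa1-/-* replicate 3 kept the call, and the adjusted p ran from 8.52e-05 to 0.158. *Adamts14*, another procollagen enzyme, had a log2 fold change of -0.25 ± 0.16 (SE, adjusted p = 0.251). Among the other ADAMTS enzymes *Adamts6* (log2 fold change -0.26, adjusted p = 0.315) and *Adamts10* (log2 fold change -0.27, adjusted p = 0.0733), which act on fibrillin microfibrils, and *Adamts12* (log2 fold change -0.33, adjusted p = 0.269) did not pass the test with all libraries.

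ADAMTS-like proteins bind the matrix and have no proteinase activity. *Adamtsl4* (ENSMUSG00000015850, chromosome 3, from 95676201 to 95687917), a partner of fibrillin microfibrils, had normalized counts of 102, 102 and 124 in *Pa1 F/F* libraries and 227, 246 and 189 in *Amh-pa1-/-* libraries. No library of one genotype reached the other, and the log2 fold change was 1.01 ± 0.15 (SE, adjusted p = 0.00290). *Adamtsl5* (ENSMUSG00000043822, chromosome 10, from 80339110 to 80348412) had normalized counts of 850.0, 667 and 840.1 in *Pa1 F/F* libraries and 1426, 1431 and 1059 in *Amh-pa1-/-* libraries. Its log2 fold change was 0.73 ± 0.15 (SE, adjusted p = 0.00961), not past the threshold with the closest pair of each genotype summed (adjusted p = 0.0902, with a range of 0.000116 to 0.0902 over 14 alternatives). *Adamtsl3* did not pass the test (log2 fold change 0.12, adjusted p = 0.805), and *Adamtsl1* and *Adamtsl2* were not tested.

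Several members turned on single libraries. *Amh-pa1-/-* replicate 3 was more than 1.5 times the mean of the other *Amh-pa1-/-* replicates in 11 tested members and under that mean divided by 1.5 in 7. *Adam12*, *Adam19* and *Adamts8* stood at 2.60, 2.52 and 2.58 times that mean. *Adam19* (ENSMUSG00000011256, chromosome 11, from 46055992 to 46147343) had normalized counts of 446, 482 and 411 in *Pa1 F/F* libraries and 295, 315 and 769.5 in *Amh-pa1-/-* libraries. *Amh-pa1-/-* replicates 1 and 2 were below and replicate 3 was above all *Pa1 F/F* libraries. The log2 fold change was 0.04 ± 0.36 (SE, adjusted p = 0.937), and without *Amh-pa1-/-* replicate 3 it was -0.55 (adjusted p = 0.00437, against a highest of 0.988 over 14 alternatives). *Mmp23* had normalized counts of 569, 623 and 506 in *Pa1 F/F* libraries and 310.4, 317 and 575 in *Amh-pa1-/-* libraries. Its log2 fold change was -0.50 ± 0.25 (SE, adjusted p = 0.161), and without that replicate it was -0.85 (adjusted p = 0.000902, against a highest of 0.467 over 14 alternatives). In all, 8 further members were lower without it, namely *Adam19*, *Adamts6*, *Adamts10*, *Adamts12*, *Adamts14*, *Mmp11*, *Mmp23* and *Mmp28*, so that 21 members were lower (48.8%) and 9 higher (20.9%), against 21.2% and 21.9% of all genes tested in that fit.

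In the same library, several markers of contractile peritubular myoid cells were high. The myoid list of 7 genes summed to 829 to 1270 CPM in *Amh-pa1-/-* libraries, with replicate 3 the highest, and to 223 to 285 in *Pa1 F/F* libraries, and none of the 7 was at 0 in all libraries. Of its 6 tested genes 1 rose, *Acta2*, which made up 75.0% to 97.5% of that sum. Without *Acta2* the sum was 71.0, 50.2 and 64.4 CPM in *Pa1 F/F* and 25.6, 20.4 and 224 in *Amh-pa1-/-* libraries. *Myh11*, smooth muscle myosin, had normalized counts of 649, 481 and 580 in *Pa1 F/F* libraries and 216, 164 and 1605 in *Amh-pa1-/-* libraries, and *Cnn1*, calponin, had 53.5, 27.1 and 65.0 against 34.2, 24.8 and 421. The collagen gene *Col1a2* had normalized counts of 22662, 29388 and 24361 in *Pa1 F/F* libraries and 13774, 13761 and 26242 in *Amh-pa1-/-* libraries, so that replicate 3 lay within the controls and replicates 1 and 2 below them. The sum of the 6 stromal fibroblast markers had the same order, with 3609 to 4495 CPM in *Pa1 F/F* libraries and 2194, 2180 and 4097 in *Amh-pa1-/-* libraries, and of the 5 tested *Pdgfra* (-1.10, adjusted p = 0.00731) and *Col3a1* fell. The part of these cells in the values of *Adam12*, *Adam19*, *Adamts1*, *Adamts8* and *Mmp23* was not tested.

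*Pa1 F/F* replicate 2 was more than 1.5 times the mean of the other *Pa1 F/F* replicates in 3 tested members, *Mmp3* (3.69 times), *Adamts7* (2.78 times) and *Adamts4* (1.90 times), and under that mean divided by 1.5 in 4. *Adamts7* (ENSMUSG00000032363, chromosome 9, from 90163069 to 90208071) had normalized counts of 681, 1838 and 643 in *Pa1 F/F* libraries and 905, 933 and 1017 in *Amh-pa1-/-* libraries. With all libraries its log2 fold change was -0.15 ± 0.40 (SE, adjusted p = 0.798), and without *Pa1 F/F* replicate 2 it was 0.52 in the other direction (adjusted p = 0.00736, against a highest of 0.961 over 14 alternatives). *Adamts7* overlaps *Tbc1d2b* on the other strand. *Adamts4* was likewise higher without that replicate. In that fit 12 members were lower (27.9%) and 10 higher (23.3%), against 14% and 15% of all genes tested, the 10 including *Adam32*, which was tested only through *Amh-pa1-/-*.

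**Figure D5:**
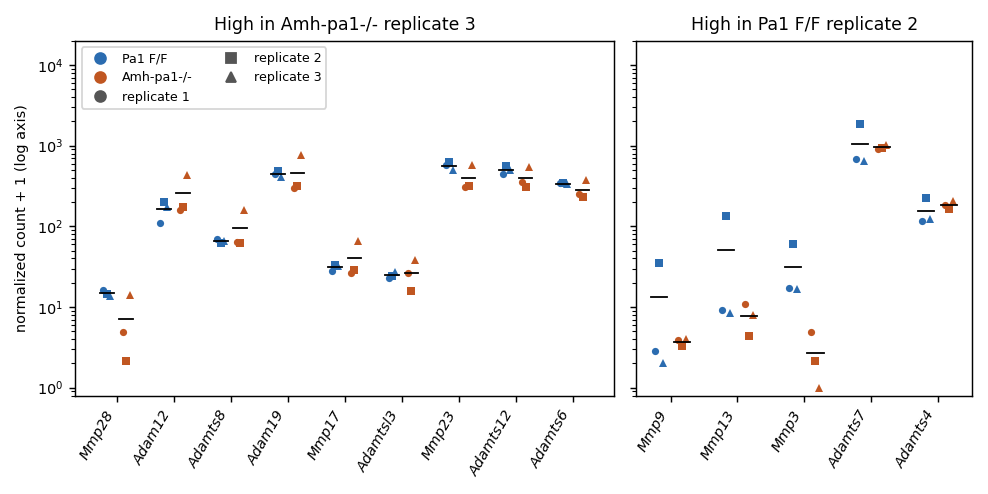
Normalized counts plus 1 (log axis) of 9 members that are high in *Amh-pa1-/-* replicate 3 without passing the test and of 5 members that are high in *Pa1 F/F* replicate 2, with a line at the mean of each genotype. In *Adam19* replicate 3 of *Amh-pa1-/-* lies above every other library while replicates 1 and 2 lie below the controls. In *Adamts7* and *Mmp13* replicate 2 of *Pa1 F/F* lies above every other library.

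Of the 28 members that were not tested, 26 had at most 20 counts in every library and 14 had at most 3. The exceptions were *Mmp13* and *Mmp9*, described above. Those with at most 3 counts included *Mmp8*, *Mmp21*, *Mmp25*, *Adamts13*, *Adamts16* and the sperm genes *Adam2*, *Adam3* and *Adam5*. A count of 0 allows up to 3 counts, and such genes were not detectable at this depth rather than absent.

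Genes that act on or with these proteinases were followed in lists. Among inhibitors and regulators outside the TIMP family, 9 of 11 were tested, 1 fell and 2 rose (median log2 fold change 0.22). *Col18a1*, whose collagen XVIII releases endostatin, fell from 5103, 4940 and 4728 to 1272, 1225 and 1579 normalized counts, a log2 fold change of -1.86, adjusted p = 0.000114. *A2m*, the broad proteinase inhibitor alpha-2-macroglobulin, had 34.4, 54.2 and 40.9 against 186, 197 and 482 normalized counts, a log2 fold change of 2.74, adjusted p = 0.00388. The membrane-anchored MMP inhibitor *Reck* did not pass the test (0.33, adjusted p = 0.0806). Of 8 proprotein convertases, which remove the prodomains of many ADAMs, ADAMTSs and membrane MMPs, 6 were tested, 1 fell and 3 rose (median 0.36). *Pcsk6* had normalized counts of 149.5, 127 and 182 in *Pa1 F/F* libraries and 24.4, 22.5 and 18.0 in *Amh-pa1-/-* libraries, a log2 fold change of -2.81, adjusted p = 0.000279. *Pcsk5* moved the other way, from 789, 676 and 758 to 3149.9, 3155 and 2355, with 1.96, adjusted p = 0.000182, and *Furin* did not pass the test (-0.10, adjusted p = 0.360).

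Of the astacin proteinases, both tested genes changed. *Bmp1*, the procollagen C-proteinase, fell (-0.97, adjusted p = 0.00300), and its relative *Tll1* rose from 10.9, 10.7 and 13.6 to 36.1, 28.2 and 40.1 normalized counts (1.57, adjusted p = 0.00433). Of 9 partners of ADAM10 and ADAM17, 8 were tested, 2 fell and 3 rose (median -0.05). The tetraspanins that escort ADAM10 moved both ways. *Tspan15* had 2204, 2606 and 1947 against 816, 769 and 867 normalized counts (-1.46, adjusted p = 0.000305), *Tspan33* had 2.72, 5.81 and 4.20 against 15.6, 11.3 and 18.0 (1.81, adjusted p = 0.0126) and was tested only through *Amh-pa1-/-*, where it is high, and *Tspan14* was 1 of those that rose (0.52, adjusted p = 0.0331). *Frmd8*, which holds the ADAM17 complex at the surface, fell (-0.75, adjusted p = 0.00310), and *Rhbdf1*, a carrier of ADAM17, rose (0.32, adjusted p = 0.00861).

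Of 11 ligands that ADAM17 or ADAM10 release, 8 were tested, 4 rose and 1 fell (median log2 fold change 0.56). The EGF receptor ligand *Ereg* had 78.8, 85.2 and 83.9 against 298, 315 and 214 normalized counts (1.74, adjusted p = 0.000694). *Egf* had 233, 178 and 281 against 633.5, 579 and 489 (1.30, adjusted p = 0.00251). *Btc* (0.99, adjusted p = 0.00726) and *Tgfa* (0.67, adjusted p = 0.0355) rose less, and *Cx3cl1*, a membrane-bound chemokine, fell (-0.35, adjusted p = 0.0295). Of 13 ADAMTS substrates and ADAMTS-like partners, 10 were tested, 2 rose and 1 fell (median -0.08). *Vwf*, the substrate of ADAMTS13 and an endothelial marker, passed the filter on low counts only through *Amh-pa1-/-* and was at 2.098 to 9.68 normalized counts in *Pa1 F/F* and 17.03 to 25.4 in *Amh-pa1-/-* libraries (1.63, adjusted p = 0.0339). The endothelial markers *Pecam1* (-1.73, adjusted p = 0.00918) and *Cdh5* (-0.87, adjusted p = 0.000536) fell, and the sum of the 7 endothelial markers was 116 to 122 CPM in *Pa1 F/F* and 64.1 to 101 in *Amh-pa1-/-* libraries, most of it *Cdh5* (64.8% to 93.0%). The proteoglycan gene *Bcan* had 194, 297 and 173 against 494, 518 and 2523 (2.41, adjusted p = 0.0335), so that its size rested on *Amh-pa1-/-* replicate 3. *Col3a1*, a procollagen, fell (-0.91, adjusted p = 0.0333), while the proteoglycans *Vcan* and *Acan* did not pass the test.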

How the data were processed

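Total RNA of purified Sertoli cells was sequenced in 6 libraries, grouped by genotype from the labels, with 3 replicates of each. Per the paper, the NEBNext Ultra kit was used for the libraries. HISAT2 2.1.0 aligned the reads to GRCm38 and HTSeq 0.6.0 counted them per gene, and the authors deposited the raw read counts. The strand setting is not given in the sources used here. The table's fold changes, p-values and GO terms are the authors' own and were not used.

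Counts were filtered with edgeR's filterByExpr (minimum count 10, minimum total count 15), scaled with TMM and compared between genotypes by the quasi-likelihood F-test in R 4.3.3 (edgeR 4.0.16), with Benjamini-Hochberg adjustment over 14919 genes. A call is an adjusted p under 0.05. Both thresholds, the second a log2 fold change of 1 or more in size, follow the study. On simulated counts of 14680 genes for this comparison, 100% of 200 genes with a log2 fold change of 2 were recovered, and 0.498% of calls were unchanged genes. The simulation gave all genes the same dispersion, drew changed genes only from those above 1 CPM on average, and set no library apart. It checks that the steps run correctly and does not measure how reliable calls are at low counts, smaller changes or outlying libraries. RPKM was computed from the counts and exon lengths of GENCODE vM39, matched by Ensembl identifier, of which only lengths were taken. Gene positions are those of the deposited table, and promoters are RefSeq's on the same build. Intervals from counts cover counting error only, since reads without molecular identifiers are not independent molecules. Tables were made with Python 3.11.15. Alternatives used DESeq2 1.42.0 and limma 3.58.1 as well.

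The members, lists and tests were chosen with earlier results of these data known. By the rule for names, the text gives each member past both thresholds, the Timp genes, *Mmp2*, *Mmp14*, *Adam10*, *Adam17*, the 8 members with the highest mean RPKM, and listed pathway genes past both thresholds. Other members are counted, with examples.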

Additional observations from a re-analysis of the deposited data

How the results depend on the processing

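Of 582 values of single members under an alternative, 518 kept their direction and their side of the threshold, 36 lost the call, 13 gained it and 15 changed sign. Counts of members lower and higher were 13 and 9 with DESeq2 size factors, 14 and 9 with library size only, 15 and 8 with DESeq2's Wald test, 14 and 8 with limma-voom and without a filter, and 11 and 7 with at least 10 counts in every library. All tested genes gave 16.5% to 17.5% lower and 17.8% to 18.3% higher under these settings, against 30.6% to 35.7% and 19.0% to 21.4% of the members tested, except without a filter, where 8.53% and 9.91% of all genes stood against 20.0% and 11.4% of the members. Leaving out each replicate in turn gave 10 to 21 members lower, 6 to 10 higher, 9 to 12 lower past 2-fold and 3 to 5 higher past 2-fold. Over all tested genes it gave 1689 to 3257 lower and 1761 to 3360 higher, and 796 to 1216 and 670 to 860 past 2-fold. The highest count of lower members, 21, was without *Amh-pa1-/-* replicate 3, and the count of 3 higher past 2-fold was without *Pa1 F/F* replicate 1 or *Amh-pa1-/-* replicate 1. With the closest pair of each genotype summed, which left fewer replicates, 8 members were lower and 2 higher, with 2 higher past 2-fold, and the 12 that lost the call were *Mmp3*, *Mmp15*, *Mmp16*, *Mmp19*, *Timp2*, *Adam9*, *Adam11*, *Adam33*, *Adamts1*, *Adamts2*, *Adamts5* and *Adamtsl5*. All tested genes then gave 674 lower and 708 higher, of which 455 and 428 were past 2-fold. With edgeR's glmTreat, which tests against a log2 fold change of 1 rather than 0, 4 members were lower and 0 higher (9 and 3 at an unadjusted p under 0.05), and all tested genes gave 306 and 232.

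The replicate numbers did not pair the libraries. The correlation of deviations from the group means between libraries of the same number was 0.108, -0.164 and -0.179, and 0 of 3 control replicates correlated best with its own number. With the replicate number as a block 12 members were lower (28.6%) and 8 higher (19.0%), against 12.6% and 12.8% of all tested genes, since *Timp2* (adjusted p = 0.0599) and *Adam33* (0.117) were not past the threshold, and *Adam19* (-0.10) and *Adamts7* (0.033) changed sign without being called.

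Changes of sign without a call elsewhere were *Adam19* (-0.10), *Adam1a* (0.023) and *Adamts7* (0.029) with limma-voom, and *Adam1a* (0.13) with the closest pairs summed. Without 1 replicate each, log2 fold changes ran from -0.015 to 0.13 for *Mmp14*, from -0.55 to 0.29 for *Adam19*, from -0.27 to 0.37 for *Adam1a*, from -0.40 to 0.52 for *Adamts7*, from -0.062 to 0.80 for *Adamts8*, from -0.23 to 0.41 for *Adamtsl3* and from -0.17 to 0.62 for *Mmp17*. The cause of these changes was not tested. Low counts limit *Mmp3*, *Adam11*, *Adam33* and *Mmp28*, and reads of overlapping genes on opposite strands, listed for 21 members, cannot be told apart if strand was not used.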
